A study of Homo sapiens with 32 samples.

Results

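The genes described here are 10 known members of the ATF4 amino acid stress program: ATF4, PHGDH, PSAT1, SHMT2, ASNS, AARS, DDIT3, TRIB3, CHAC1 and SESN2. They were chosen by name, and each matched exactly 1 of the 60107 gene rows of the deposited tables. All 10 passed the filter on low counts that left 12406 genes for testing. PHGDH, the enzyme that opens serine synthesis, was lower in KO and HA cells than in WT cells by 0.63 to 0.73 on the log2 scale, with and without LPS, and in unstimulated KO cells it passed the limit of the test. No other member passed it in any of the 15 comparisons. ATF4 and the serine enzyme PSAT1 deviated in opposite directions between libraries of the same group. The spread of ATF4 was close to that of the median gene, and that of PSAT1 was larger.

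The RNA came from THP-1 cells, a human monocytic leukemia line. KO cells lack ACLY, the enzyme that makes acetyl-coenzyme A from citrate. WT, HA and SA cells are KO cells into which a lentivirus brought the coding sequence of wild-type ACLY, of catalytically inactive H760A ACLY or of S455A ACLY, which cannot be phosphorylated at that serine. Each line was either left unstimulated or given LPS, a bacterial cell wall component, for 3 h, which makes 8 groups of 4 libraries and 32 libraries in all. The labels and the study's description of this experiment give 100 ng/ml LPS, while a general methods paragraph gives a lower concentration. A single line stood for each genotype, and p-values measure only the spread between repeats of that line, which may be technical. Whether the KO cells also went through transduction and selection is not stated, and that difference cannot be told apart from the loss of ACLY. The wild-type reference throughout is the re-expressing WT line, not the parental cells.

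ATF4 is a transcription factor at the end of the integrated stress response. When amino acids run short or the endoplasmic reticulum is loaded with unfolded protein, kinases phosphorylate eIF2, general translation falls, and the ATF4 message is translated better. ATF4 protein then switches on genes for amino acid uptake, serine and asparagine synthesis and tRNA charging, together with brakes on growth and on the response itself. Messenger RNA counts record the ATF4 message and the output of its targets, but not the translation of ATF4.

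ATF4 and its C/EBP partners bind a composite DNA element, which was searched for as TGATGNAA on both strands in the 250 bases before each annotated RefSeq start site of GRCh38.p14. A promoter was listed for 9 members, and SHMT2 was not among them. The element was found in 3 of these 9 members, ASNS, CHAC1 and AARS, and in 3.14% of all 35116 promoter windows. The related cyclic AMP element, searched for as TGACGTNA, was found in 0 of the 9 and in 2.67% of all windows. The 3 matches are shown with 20 bases on each side, 5′ to 3′ on the strand of the gene, with the element in capitals, because ASNS, CHAC1 and AARS are the members whose promoters hold it. A match is a description of the letters, not a measured binding site.
ASNS: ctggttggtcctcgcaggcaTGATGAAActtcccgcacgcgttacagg
CHAC1: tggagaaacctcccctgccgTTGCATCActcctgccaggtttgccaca
AARS: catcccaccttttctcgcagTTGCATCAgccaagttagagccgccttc
The ASNS window is chr7:97872449-97872496 on the minus strand and reads the element forward, 68 to 61 bases before the start site. The CHAC1 window is chr15:40953242-40953289 on the plus strand, 209 to 202 bases before the start, and the AARS window is chr16:70289666-70289713 on the minus strand, 187 to 180 bases before it. In both of these the element lies on the opposite strand, so that its reverse complement is printed. By the GENCODE gene positions all 3 elements lie inside the annotated genes. The distances therefore hold only for the RefSeq start sites used. PHGDH had neither run of letters in this window.

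Reads on genes ran from 6504099 to 14750815 over the 32 libraries. All 10 monocytic markers looked up, LYZ and CD14 among them, passed the filter. The summed T cell, epithelial and fibroblast markers reached at most 35.9 normalized counts in any library, and the B cell markers reached 85.1. CD3E, PAX2, KRT19 and COL1A2 were at 0 in all libraries. ACLY itself had 90.7 to 117 normalized counts in WT and 67.2 to 107 in KO cells, and the groups overlapped. The libraries read the 3′ end of transcripts, the constructs carry the coding sequence only, and the count of ACLY therefore checks neither the knockout nor the re-expression. In each group 1 library lay farther from its group mean over all tested genes than the other 3: replicate 3 of WT and of KO and replicate 1 of HA and of SA, both with and without LPS. These 8 libraries had a lower median of genes with a read, 16003 against 17585.5 in the other 24, with overlapping ranges (13460 to 16991 and 16496 to 18552). Their median of reads on genes was lower as well, 8650799 against 10945772, also with overlapping ranges. After LPS, replicate 1 of WT and of KO had still fewer genes with a read than the most distant library of its group. The share of reads on pseudogenes was larger in the 8 distant libraries (0.287 to 0.365%, against 0.218 to 0.284%). Replicate 1 of SA after LPS was the most distant, with a root mean square deviation of 1.42 on the log2 scale against at most 0.828 in any other library. The part of these library differences in the results was not tested. Some of the differences and correlations that move with the distant libraries are given also without them, but not all. Values below are normalized counts, reads scaled by factors that were computed from the 32 libraries together, and differences are on the log2(normalized count + 1) scale. A gene was called at a Benjamini-Hochberg adjusted p below 0.01 over all 12406 genes in limma. Fewer cells with a transcript and less transcript per cell cannot be told apart in such bulk RNA.

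ATF4 (chr22:39519695-39522683, GRCh38) was abundant in every group. Its normalized counts were 4811, 5750.0, 9170.4 and 4952 in WT, and 3703, 3252, 8268 and 3755 in KO libraries 1 to 4. After LPS they were 5043, 4962, 8112 and 5325 in WT and 2127, 2979, 6363 and 3803 in KO. In each of these 4 groups library 3 was the highest by a wide margin. Taken number by number, KO lay below WT for all 4 numbers, both unstimulated and after LPS.

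The difference in ATF4 between KO and WT was -0.44 ± 0.32 (SE) without LPS and -0.70 ± 0.32 after LPS (n = 4 per group), and the limma test passed neither, with adjusted p of 0.649 and 0.237. WT and KO libraries of the same number deviated from their group means together, and library 3 was the most distant in each of these groups. Libraries of different numbers were not compared, so whether the numbers mark pairs was not tested. With the number as a block and only the WT and KO libraries in the fit, the difference after LPS was called (adjusted p = 6.45e-04 in limma), and the unstimulated one was not (adjusted p = 0.0254). That blocked fit was chosen after seeing the data, and it called 1509 genes after LPS, against 430 in the main fit. Without the most distant library of each group the difference after LPS was -0.82 ± 0.19 and was called as well (adjusted p = 4.36e-03). This fit too was chosen after seeing the data, and it called 868 genes after LPS, against 430 in the main fit. Single libraries moved the ATF4 differences too. The unstimulated difference was -0.23 without WT replicate 3 and -0.74 without KO replicate 3, and that after LPS was -0.46 without KO_LPS replicate 1. In HA and SA cells the ATF4 message was within 0.18 of WT on the log2 scale in all 4 comparisons, with 95% confidence intervals that lay between -0.83 and 0.63.

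The serine branch came next in the program: PHGDH turns a glycolytic intermediate into the precursor of serine, PSAT1 adds the amino group, and SHMT2 splits serine to glycine in mitochondria and feeds the folate cycle. PHGDH (chr1:119648411-119744218) had 707, 692, 782 and 829 normalized counts in WT, 508, 462, 359 and 490.3 in KO, 380.2, 523, 419 and 572 in HA, and 715, 712, 694 and 921 in SA. The KO and HA libraries all lay below every WT and every SA library. After LPS the counts were 696, 734, 736 and 920.0 in WT, 446, 426, 494 and 554 in KO, 503, 446, 509 and 528 in HA, and 392.5, 689, 665 and 770.4 in SA. Again every KO and HA library was below every WT library, while SA overlapped with all of them, its distant library 1 being the lowest.

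In unstimulated KO cells PHGDH was lower than in WT by 0.73 on the log2 scale (-0.73 ± 0.17, SE, 95% confidence interval -1.08 to -0.39, n = 4 per group), a level of 0.601 times WT, with an adjusted p of 6.51e-03 in limma. In this comparison 2.9% of all genes were called, and 1.1% were called lower. The corresponding differences were -0.68 ± 0.17 in HA (adjusted p = 0.0132), -0.68 ± 0.17 in KO after LPS (adjusted p = 0.0109) and -0.63 ± 0.17 in HA after LPS (adjusted p = 0.0301), all above the limit of 0.01. Of the 10 monocytic markers, LYZ and CD14 were called higher in unstimulated KO cells, by 1.89 ± 0.34 and 1.66 ± 0.26 on the log2 scale (adjusted p = 4.25e-04 and 6.54e-05 in limma), and LYZ in HA cells, by 1.62 ± 0.34 (adjusted p = 3.20e-03), and their part in the PHGDH result was not tested. With the replicate block in the fit of all 8 groups PHGDH was called in KO after LPS (adjusted p = 1.99e-03), and with the WT and KO libraries alone its adjusted p there was 1.69e-04. These blocked fits called 554 and 1509 genes after LPS, against 430 in the main fit. The KO call was lost without WT replicate 1, 2, 3 or 4 and without KO replicate 2, 3 or 4, and it held without KO replicate 1. Over all 44 alternatives it held in 35, with adjusted p from 8.71e-05 to 0.0397 in limma. Those 44 include fits without libraries of other groups. The sign was the same throughout, but many of these alternatives cannot move the difference. SA cells differed from WT by 0.01 ± 0.17 without LPS (interval -0.34 to 0.36) and by -0.33 ± 0.17 after LPS, a value that was -0.12 ± 0.15 without SA_LPS replicate 1.

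PSAT1 (chr9:78297125-78330093) had 424, 441, 189 and 435 normalized counts in WT, 315, 376, 90.5 and 303 in KO, 98.6, 128, 199 and 284 in HA, and 233, 418, 407 and 264 in SA. After LPS the counts were 412, 484, 216 and 405 in WT, 406, 377, 143 and 294 in KO, 80.0, 286, 186 and 263 in HA, and 47.5, 403, 368 and 500.2 in SA. HA cells had the lowest means with and without LPS, yet their libraries overlapped with WT through WT library 3, and in every one of the 8 groups the lowest value was that of the group's most distant library. The HA difference from WT was -1.10 ± 0.56 without LPS (adjusted p = 0.222) and -0.98 ± 0.56 after LPS (adjusted p = 0.396), neither called in limma. Without the most distant library of each group it was -1.16 ± 0.22 without LPS, which was called (adjusted p = 5.55e-04), and -0.84 ± 0.22 after LPS, which was not (adjusted p = 0.0154). That fit was chosen after seeing the data, and without LPS it called 2188 genes, against 313 in the main fit. It leaves out the libraries in which PSAT1 was lowest, so the smaller SE follows in part from the choice. The HA difference after LPS was -0.59 without HA_LPS replicate 1. In KO cells the difference was -0.56 ± 0.56 without LPS and -0.36 ± 0.56 after it, and single libraries decided its size: it was -0.09 without KO replicate 3 and -0.86 without WT replicate 3, and after LPS -0.03 without KO_LPS replicate 3, -0.22 without WT_LPS replicate 2 and -0.61 without WT_LPS replicate 3. Without the most distant library of each group it was -0.39 ± 0.22 and -0.28 ± 0.22, and the replicate block of the WT and KO libraries left it uncalled at adjusted p of 0.0101 and 0.0812.

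SHMT2 (chr12:57229573-57234935) varied less, from a group mean of 895 normalized counts in SA after LPS to 1264 in unstimulated SA. WT cells had a mean of 1136 ± 121 (SD, n = 4), KO cells 1008 ± 89.3 and HA cells 1176 ± 116, with overlap between these groups. After LPS the means were 1218 ± 135 for WT, 946 ± 187 for KO and 1168 ± 191 for HA. The KO difference after LPS of -0.38 ± 0.18 was not called in limma (adjusted p = 0.273) and was called in the blocked fit of the WT and KO libraries (adjusted p = 6.44e-03). For that comparison the blocked fit called 1509 genes, against 430 in the main fit. In SA after LPS every library was below every WT library, by -0.49 ± 0.18 on the log2 scale, with an adjusted p of 0.825. Without SA_LPS replicate 1 that difference was -0.26 ± 0.16.

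**Figure D1:**
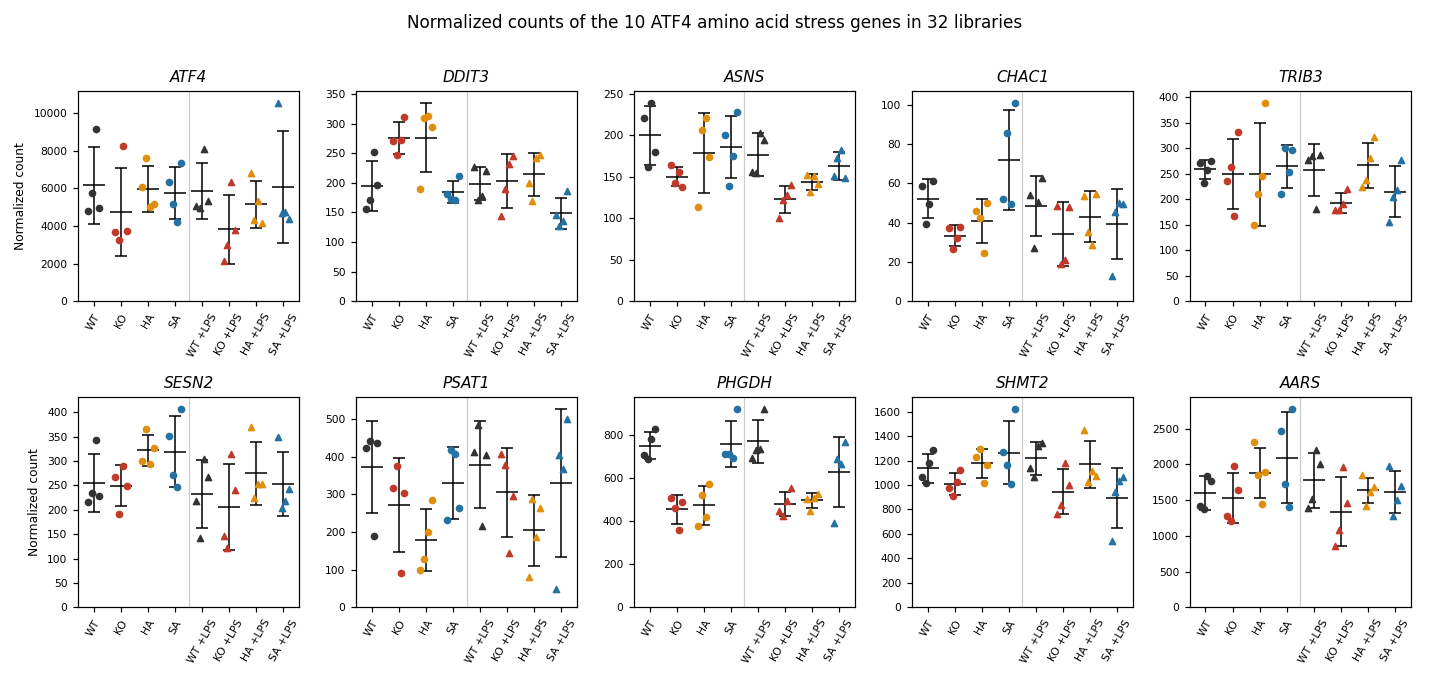
Normalized counts of the 10 genes (vertical axes, each from 0) in the 8 groups (horizontal axes), with 1 point per library (circles unstimulated, triangles after LPS) in order of replicate number and bars for mean ± SD. PHGDH is the panel in which all KO and HA points lie below all WT points, and in the ATF4 and PSAT1 panels 1 point of most groups stands apart, high for ATF4 and low for PSAT1.

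ASNS and AARS carry the program into protein synthesis: ASNS makes asparagine from aspartate and glutamine, and AARS, listed as AARS1 in newer annotation, loads alanine onto its tRNA. ASNS (chr7:97851677-97872542) had 220.4, 162, 239 and 179 normalized counts in WT, 164, 143, 155 and 138 in KO, 113, 206, 221 and 174 in HA, and 200.2, 139, 175 and 228 in SA. All groups overlapped there. After LPS it had 156, 154, 203 and 194 in WT, 101, 122, 129 and 139 in KO, 152, 131, 151 and 141 in HA, and 151, 173, 182 and 148 in SA. Every KO and every HA library was then below every WT library, while SA overlapped with WT. The KO difference was -0.40 ± 0.18 without LPS and -0.52 ± 0.18 after LPS, with adjusted p of 0.311 and 0.102 in limma, and the blocked fit of the WT and KO libraries gave 0.0746 and 0.0175. The HA difference was -0.19 ± 0.18 and -0.29 ± 0.18.

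AARS (chr16:70251983-70289707) ran from 858 to 2774 normalized counts over the 32 libraries. Its group means were 1600 ± 237 (SD, n = 4) in WT, 1531 ± 355 in KO, 1875 ± 352 in HA and 2095 ± 635 in SA, and after LPS 1777 ± 388, 1340.1 ± 483, 1640.4 ± 175 and 1614 ± 293. No pair of groups compared was free of overlap. KO after LPS differed from WT by -0.45 ± 0.23 (adjusted p = 0.321 in limma), and the blocked fit of the WT and KO libraries called that difference (adjusted p = 3.77e-03). For that comparison the blocked fit called 1509 genes, against 430 in the main fit. Without KO_LPS replicate 1 the AARS difference was -0.26.

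DDIT3, also known as CHOP, is the stress factor that turns a lasting response toward cell death. Of the 10 members only DDIT3 had a higher mean log2 level in KO than in WT cells, without LPS and after it. DDIT3 (chr12:57516588-57521737, minus strand) had 156, 171, 252 and 197 normalized counts in WT, 271, 248, 273 and 312 in KO, 190.1, 310, 313 and 294 in HA, and 181, 173, 171 and 211 in SA. KO and HA were above WT and SA except that KO library 2 was just under WT library 3 and HA library 1 was among the WT values. The difference from WT was 0.52 ± 0.19 in KO and 0.51 ± 0.19 in HA, with adjusted p of 0.134 and 0.104 in limma. After LPS the difference was 0.01 ± 0.19 in KO and 0.10 ± 0.19 in HA. Without the most distant library of each group, HA library 1 among them, the unstimulated HA difference was 0.81 ± 0.19 and was called (adjusted p = 3.16e-03), while that of KO was 0.66 ± 0.19 and was not (adjusted p = 0.0324). That fit was chosen after seeing the data, and for unstimulated HA it called 2188 genes, against 313 in the main fit.

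TRIB3, a pseudokinase that restrains ATF4 and DDIT3, had group means from 193 normalized counts in KO after LPS to 267 in HA after LPS. In unstimulated KO, HA and SA cells it differed from WT by -0.09 ± 0.23, -0.14 ± 0.23 and 0.02 ± 0.23 on the log2 scale. After LPS every KO library (179, 178, 191 and 221) was below every HA library (225, 239, 280.3 and 323), a difference of -0.46 ± 0.23 that was not called (adjusted p = 0.482 in limma).

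CHAC1, which breaks down glutathione and is among the more sensitive ATF4 targets, was the least abundant member and rested on 11 to 107 reads per library. Its counts were 58.7, 39.4, 49.3 and 61.3 in WT and 37.2, 26.5, 32.4 and 37.7 in KO, so that every KO library was below every WT library. The difference of -0.62 ± 0.39 was not called (adjusted p = 0.544 in limma), and at this depth its 95% interval ran from -1.41 to 0.18. SA cells had the highest mean, 72.0 ± 25.4 (SD, n = 4), with 51.9, 85.7, 49.3 and 101 in its libraries, which overlapped with WT.

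For SESN2, a sensor that restrains mTORC1 when leucine is low, the means were 256 ± 59.2 (SD, n = 4) for WT, 249 ± 42.4 for KO, 322 ± 32.4 for HA and 319 ± 73.4 for SA. Every unstimulated KO library (268, 191, 289 and 249) was below every HA library (299.9, 366, 295 and 326), and the difference of -0.38 ± 0.26 was not called (adjusted p = 0.579 in limma). Against WT, SESN2 differed by 0.35 ± 0.26 in HA and 0.32 ± 0.26 in SA, with intervals that held 0.

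Over the list, 9 of the 10 members had a lower mean log2 level in KO than in WT without LPS and 9 of 10 after LPS. The median difference was -0.28 and -0.43, while the median over all genes tested was -0.03 and -0.01. Of all genes tested 46.3% and 49.0% were higher in KO. Members that deviate together between libraries are not independent of each other in such counts. PHGDH was the 1 member called without LPS and 0 members were called after LPS, where 3.47% of all genes were called. At an unadjusted p below 0.05 there were 3 members without LPS (DDIT3, ASNS and PHGDH), beside 14.3% of all genes, and 4 after LPS (ATF4, ASNS, PHGDH and SHMT2), beside 17.2%. In HA cells 6 and 7 of the 10 members were lower, with medians of -0.08 and -0.12, and 0 were called without LPS and after LPS, where 2.52% and 2.02% of all genes were called. Of all genes tested 48.4% and 47.4% were higher in HA, with medians of -0.02 and -0.03. At an unadjusted p below 0.05 HA had 2 members without LPS and 1 after LPS, beside 24.5% and 16.7% of all genes. In SA cells 4 of 10 were lower without LPS and 9 of 10 after LPS, with medians of 0.01 and -0.30. Of all genes tested 48.0% and 47.9% were higher in SA, with medians of -0.01 and -0.02. The median in SA after LPS was thus close to that in unstimulated KO cells, but it includes the distant SA_LPS replicate 1. No median without that library was computed. Over the alternatives the SA difference after LPS ran from -0.91 to 0.21 for PSAT1 and from -0.65 to 0.10 for CHAC1. Those of PHGDH (-0.44 to -0.06) and SHMT2 (-0.59 to -0.22) stayed below 0. In both SA comparisons 0 members and 0% of all genes were called. SA had 0 members at an unadjusted p below 0.05 without LPS and 2 after it, beside 3.59% and 5.21% of all genes. The comparisons of KO, HA and SA with WT share the same WT libraries, so their values for a member are not independent of each other.

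**Figure D2:**
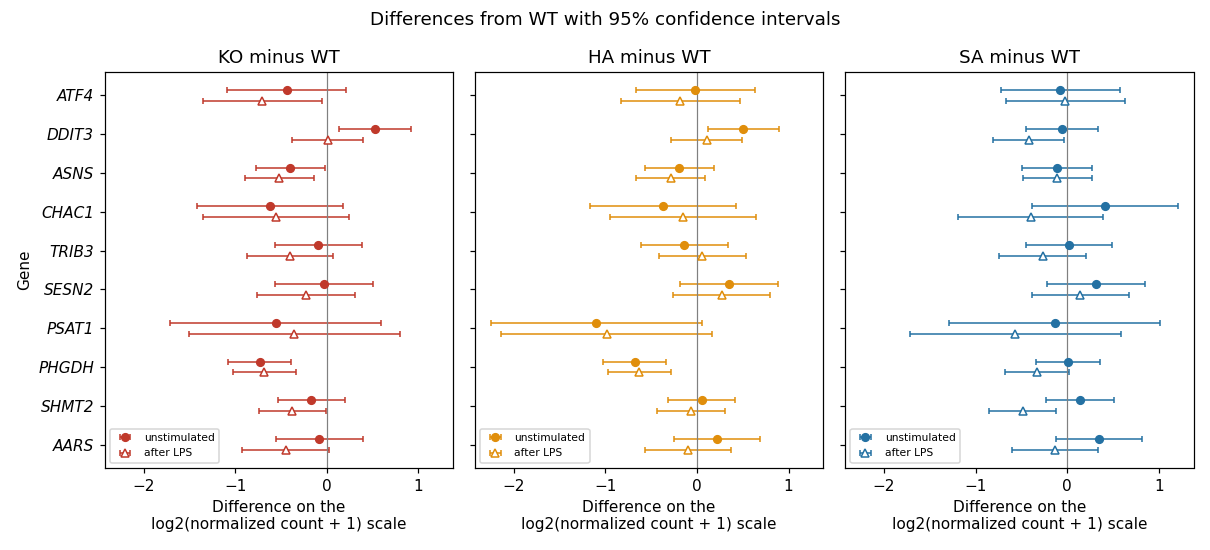
Difference of each gene from WT on the log2(normalized count + 1) scale (horizontal axis) for the 10 genes (vertical axis) in KO, HA and SA cells, as points with 95% confidence intervals from limma (filled circles unstimulated, open triangles after LPS). PHGDH is at -0.73 and -0.68 in KO and at -0.68 and -0.63 in HA with intervals below 0, DDIT3 is at 0.52 and 0.51 without LPS, and PSAT1 has the widest intervals.

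Some members did not overlap with WT at all. In KO cells PHGDH and CHAC1 were below WT in all libraries, as were 6.13% of all genes, and after LPS PHGDH and ASNS were, as were 7.21% of all genes. In HA cells PHGDH was below WT in all libraries without LPS, as were 8.56% of all genes, and PHGDH and ASNS after LPS, as were 6.38%. In SA cells SHMT2 was below WT after LPS, as were 1.35% of all genes. In SA without LPS 0 members were below WT in all libraries, beside 1.85% of all genes. In all 6 comparisons 0 members were above WT in all libraries, beside 5.9%, 9% and 2.37% of all genes in KO, HA and SA without LPS and 6.73%, 7.09% and 1.27% after LPS.

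The comparison of KO with HA asks whether an absent and an inactive enzyme leave the same levels. Without LPS 0 of the 10 members were called, and 0.226% of all genes were, while after LPS 0 members and 0.00806% of all genes were called, and 0 members had an unadjusted p below 0.05 in either, beside 10.4% and 10.5% of all genes. SESN2 without LPS and TRIB3 after LPS were below HA in all KO libraries, as were 2.25% and 2.43% of all genes. For PHGDH the difference between KO and HA was -0.05 ± 0.17 in both conditions, with 95% intervals from -0.40 to 0.30 and from -0.40 to 0.29. For PSAT1 it was 0.54 ± 0.56 and 0.63 ± 0.56, so a change of up to 1.69 or 1.78 on the log2 scale was within the intervals.

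After LPS for 3 h no member was called in any line. In WT cells the differences ran from -0.17 in ASNS to 0.14 in AARS, with a median of 0.00, and 0 members were called while 0.25% of all genes were. In KO cells 8 of 10 members were lower after LPS, with a median of -0.26. There 52.5% of all genes were higher, with a median of 0.02. DDIT3 had 248 to 312 normalized counts without LPS and 145 to 246 after it with no overlap, as had 1.5% of all genes in this direction, a difference of -0.47 ± 0.19 that was not called (adjusted p = 0.631 in limma). In HA cells the differences ran from -0.35 to 0.17. In SA cells 9 of 10 were lower, from -0.96 ± 0.39 in CHAC1 upward, with a median of -0.33, but without SA_LPS replicate 1 the CHAC1 difference was -0.50 ± 0.35 and that of SHMT2 went from -0.53 ± 0.18 to -0.30 ± 0.16. Of all genes 47.5% were higher after LPS in SA, with a median of -0.02. Same-numbered libraries of WT and WT_LPS, and of KO and KO_LPS, also deviated together. With the replicate number as a block and only those groups in the fit, 0 members were called. DDIT3 in KO then had -0.47 ± 0.16 (adjusted p = 0.253 in limma). None was called in KO, HA or SA cells, where 0.58%, 0.403% and 0.492% of all genes were, and the numbers at an unadjusted p below 0.05 were 0 in WT, 1 in KO, 0 in HA and 2 in SA, beside 1.61%, 5.42%, 4.76% and 9.85% of all genes.

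For 0 members was the difference between the LPS response of KO, HA or SA and that of WT called in limma. The share of all genes called was 0.00806% for KO and 0% for HA and SA, and the members at an unadjusted p below 0.05 numbered 0, 0 and 1, beside 1.41%, 1.14% and 3.68% of all genes. That member was SHMT2 in SA (-0.63 ± 0.25, adjusted p = 0.997), for which the value without SA_LPS replicate 1 was -0.40 ± 0.21. For PHGDH the response in KO minus that in WT was 0.05 ± 0.24, with an interval from -0.44 to 0.54.

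**Figure D3:**
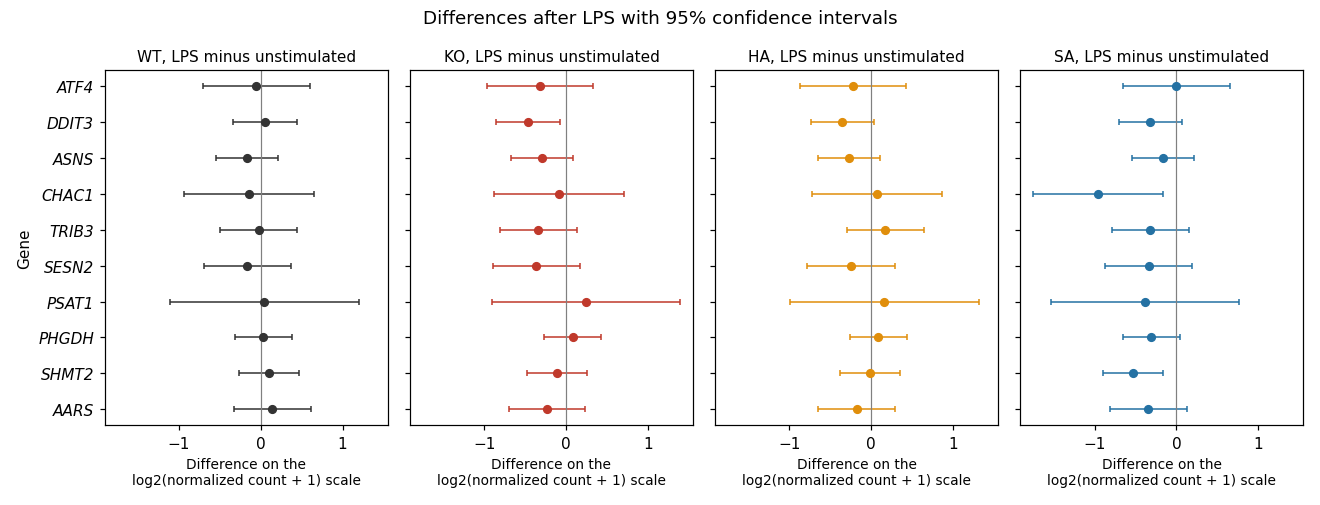
Difference after LPS on the log2(normalized count + 1) scale (horizontal axis) for the 10 genes (vertical axis) in WT, KO, HA and SA cells, as points with 95% confidence intervals from limma. In WT all 10 points lie between -0.17 and 0.14, and CHAC1 in SA, at -0.96, is the point farthest from 0.

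Within groups, the 10 genes did not move as a block. The main direction of variation among libraries of the same group held 52.1% of that variance over all tested genes, and 62.4% of all genes had a correlation of at least 0.5 with it in size. PSAT1 had one of the strongest correlations of all, r = -0.99, with only 0.29% of genes beyond it in size. ATF4 went the other way with r = 0.89, and 15.1% of genes were beyond it in size. SESN2 with 0.70 and AARS with 0.66 went with ATF4, while TRIB3 (-0.64) and PHGDH (-0.55) went with PSAT1. ASNS (0.10), SHMT2 (-0.10) and DDIT3 (0.06) hardly followed it. Over the 24 libraries left without the most distant of each group, with group means taken anew, the main direction held 23.1% of the variance, and r was -0.87 for PSAT1, 0.80 for ATF4, 0.66 for SESN2 and 0.60 for AARS, but -0.13 for TRIB3, 0.47 for PHGDH and 0.74 for SHMT2. The opposite course of ATF4 and PSAT1 was thus present with and without those libraries, while PHGDH changed sides. These correlations are over deviations of 32 libraries from their group means, share depth and library preparation, and are a description without a test.

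ATF4 and PSAT1 deviations had r = -0.90 over the 32 libraries and r = -0.79 over those 24. In SA after LPS the distant library held 10538 normalized counts of ATF4 against 4357 to 4738 in the other 3, and 47.5 of PSAT1 against 368 to 500.2. ATF4 ran with SESN2 (r = 0.80 over 32 and 0.62 over 24) and AARS (0.78 and 0.69), and PHGDH ran with SHMT2 (0.71 and 0.82) and TRIB3 (0.68 and 0.52). Between ATF4 and PHGDH r was -0.28 over 32 libraries, 0.00 without SA_LPS replicate 1 and 0.49 over 24, and between ATF4 and SHMT2 it was 0.18, 0.68 and 0.73. The most distant library was the highest of its group for ATF4 in 6 of 8 groups and for AARS in 7, and it was the lowest for PSAT1 in 8 and for TRIB3 in 6. It also held the highest pseudogene share in 8 of 8 groups, and the part of that in these opposite swings was not tested. The spread was small for PHGDH, with a within-group SD of 0.23 on the log2 scale, and largest among the members for PSAT1, with 0.85, while the median gene had 0.42. For ATF4 the SD was 0.47, and 43% of all genes had a larger one, against 15% for PSAT1.

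**Figure D4:**
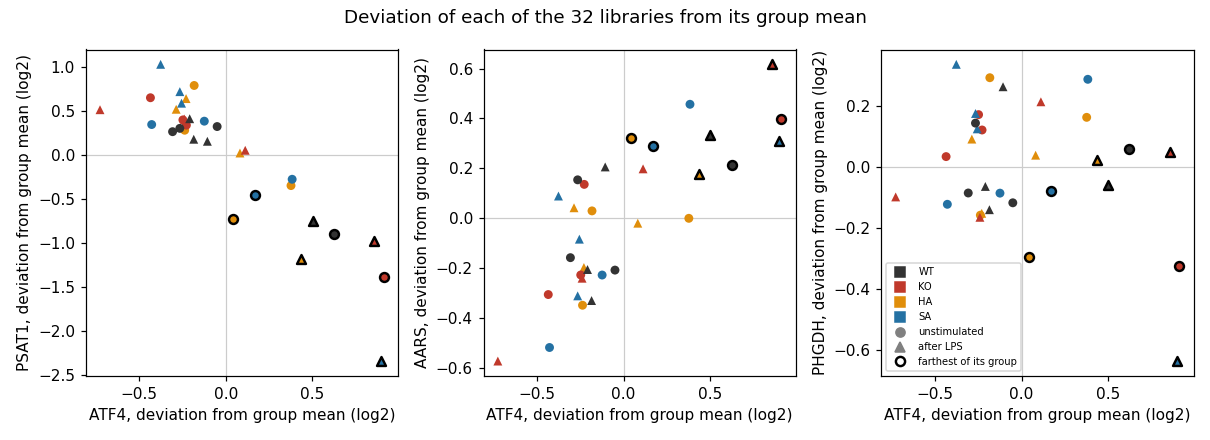
Deviation of each library from its group mean on the log2 scale, with ATF4 on the horizontal axis and PSAT1, AARS or PHGDH on the vertical axis (circles unstimulated, triangles after LPS, colors for the lines, black rims for the most distant library of each group). PSAT1 falls as ATF4 rises (r = -0.90), AARS rises with ATF4 (r = 0.78), and PHGDH has r = -0.28, which becomes 0.49 without the black-rimmed libraries.

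The genes whose levels ran most like the mean of the 10 members over the 32 libraries were MCEMP1 (r = 0.89), RPLP2 (0.85), NDRG2 (0.84), KIF22 (0.83) and CRELD2 (0.83). After the group means were taken away they were RPLP2 (0.86), PHB (0.84), MCEMP1 (0.83), TMEM176B (0.83) and CDK2AP2 (0.83). With that mean z-score of the members SHMT2 had r = 0.82 and 0.80, PHGDH 0.70 and 0.80, ATF4 0.47 and 0.26, and PSAT1 0.10 and 0.03. These values are descriptions over libraries that share depth and preparation.

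Other genes of the pathway were read from lists of amino acid transporters, cytosolic tRNA synthetases, enzymes of serine, glycine, folate, proline, asparagine and related amino acid metabolism, ATF4 partners and further targets, eIF2 kinases and phosphatase subunits, and endoplasmic reticulum stress genes. Of 9 amino acid transporters tested, SLC7A11 and SLC38A1 were called lower in KO and in HA, with and without LPS, and 0 were called higher. The median of the 9 was -0.35 in KO and -0.47 in HA. SLC7A11 (chr4:138164097-138242349), the cystine importer that supplies glutathione synthesis, had 743, 1086, 761 and 549.6 normalized counts in WT, 201, 329, 270.3 and 180.3 in KO, 163, 373, 451 and 227 in HA, and 542, 877, 1097 and 522 in SA. All KO and HA libraries were below all WT and SA libraries. The difference from WT was -1.67 ± 0.32 in KO (adjusted p = 9.62e-04) and -1.44 ± 0.32 in HA (adjusted p = 5.66e-03) in limma, and after LPS it was -1.80 ± 0.32 and -1.58 ± 0.32. The HA call without LPS was lost in 4 of 11 alternatives, among them the fit without the most distant libraries.

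SLC38A1 (chr12:46183063-46270017), a glutamine and small neutral amino acid importer, changed more. It had 614, 618, 553 and 656 normalized counts in WT, 113, 128, 70.3 and 73.6 in KO, 130.1, 152, 74.3 and 114 in HA, and 463, 554, 691 and 399.9 in SA. KO and HA libraries were again all below WT and SA. The difference was -2.70 ± 0.25 in KO (adjusted p = 1.14e-08) and -2.41 ± 0.25 in HA (adjusted p = 2.30e-07) in limma, and after LPS -2.13 ± 0.25 and -2.45 ± 0.25. The call held in all 11 or 12 alternatives of each of these 4 comparisons, which for list genes did not include leaving out single libraries.

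Of 19 cytosolic tRNA synthetases, TARS, which charges threonine, was the 1 called in KO and in HA, with and without LPS. TARS (chr5:33440696-33468091) had means of 3557 in WT, 1914 in KO, 2039.5 in HA and 3608 in SA, and its difference was -0.93 ± 0.17 in KO (adjusted p = 4.59e-04) and -0.81 ± 0.17 in HA (adjusted p = 2.99e-03) in limma. The HA call was lost in 3 of 11 alternatives, the deposited scale among them, and the KO call in the fit of only the groups compared. The median of the 19 was -0.02 in KO and -0.07 in HA. Of 10 tested enzymes of serine, glycine, folate, proline and related amino acid metabolism 0 were called in any comparison with WT, with medians of -0.15 in KO and -0.56 in HA. Of 18 endoplasmic reticulum stress genes of the ATF6 and XBP1 branches, which are read by a separate arm of the unfolded protein response, 0 were called as well, with medians of 0.06 and -0.11.

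Among 17 tested ATF4 partners and further targets, ATF3 and CREBRF were higher in KO, with and without LPS, and 0 were called in HA. ATF3 (chr1:212565334-212620777), a stress factor that LPS also induces, had 40.1, 62.8, 43.7 and 62.1 normalized counts in WT and 89.8, 125, 131 and 113 in KO, and after LPS 79.3, 154, 90.3 and 136 in WT and 325, 364, 281 and 334 in KO. KO was above WT in every library both times, by 1.14 ± 0.21 without LPS (adjusted p = 7.80e-04) and by 1.54 ± 0.21 after LPS (adjusted p = 1.13e-05) in limma. LPS raised ATF3 in each line, by 1.10 ± 0.21 in WT, 1.51 ± 0.21 in KO, 1.85 ± 0.21 in HA and 1.95 ± 0.21 in SA. CREBRF, a negative regulator of the unfolded protein response, was higher in KO by 1.35 ± 0.27 without LPS (adjusted p = 1.42e-03) and by 1.18 ± 0.27 after LPS (adjusted p = 4.67e-03). The unstimulated KO calls of ATF3 and CREBRF were lost with only the groups compared in the fit, and that of CREBRF also when the replicate block was added to it.

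Of the 8 eIF2 kinases, eIF2 alpha and phosphatase subunits, EIF2AK2 was the 1 called against WT, in KO with and without LPS. EIF2AK2 encodes PKR, the kinase that answers to double-stranded RNA and that interferon induces. It had 1141, 1173, 1006 and 1252 normalized counts in WT, 3192, 3783, 2575 and 2768 in KO, 2355, 1443, 1753 and 1309 in HA, and 1004, 1161, 1329 and 1053 in SA. Every KO library was above every WT, HA and SA library. The difference from WT was 1.42 ± 0.17 (adjusted p = 6.97e-07) and after LPS 1.28 ± 0.17 (adjusted p = 3.83e-06) in limma, and KO exceeded HA by 0.87 ± 0.17 (adjusted p = 7.52e-03). The kinases that sense amino acids, unfolded protein and heme, EIF2AK4, EIF2AK3 and EIF2AK1, were not called. LPS raised EIF2AK2 in SA by 0.80 ± 0.17 (adjusted p = 8.42e-03).

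**Figure D5:**
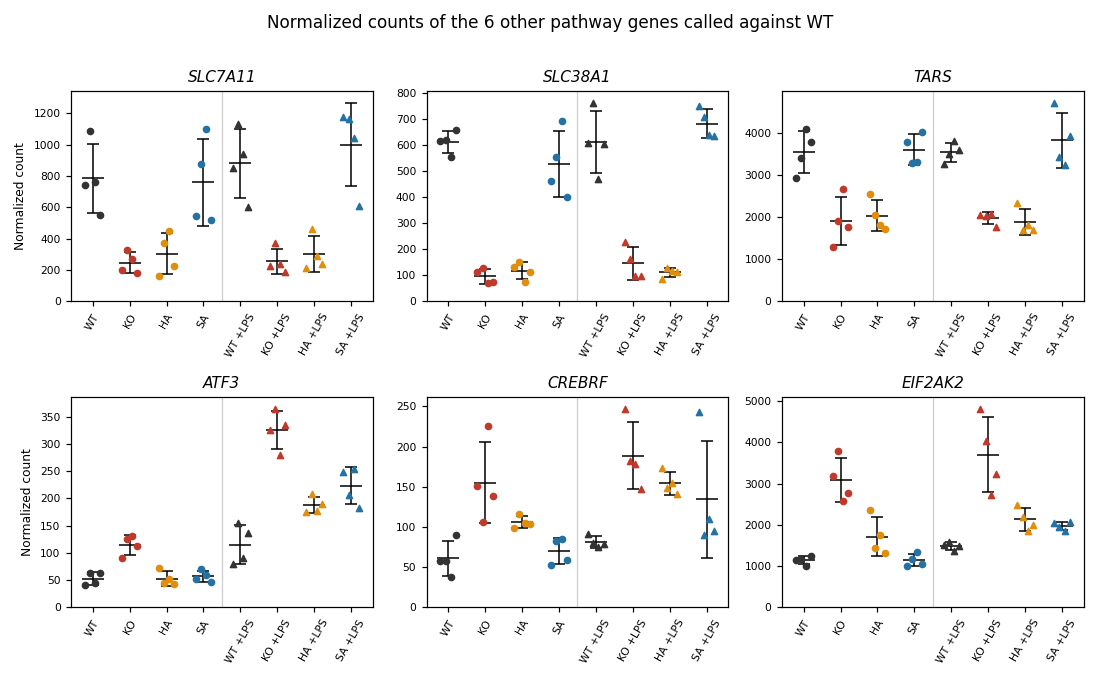
Normalized counts (vertical axes, each from 0) of the 6 other pathway genes called against WT, in the 8 groups (horizontal axes), with 1 point per library (circles unstimulated, triangles after LPS) and bars for mean ± SD. SLC7A11, SLC38A1 and TARS are lower in KO and HA than in WT and SA with and without LPS, and EIF2AK2 and ATF3 have their highest means in KO after LPS.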

How the data were processed

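RNA of THP-1 cells was sequenced as 32 QuantSeq 3′ libraries, 4 in each of 8 groups. Reads were cleaned with Bbduk by the authors, aligned by STAR (GRCh38), assigned to genes by HTSeq-count and analyzed with DESeq2. The labels also name bcl2fastq. Versions and the gene annotation are not given in the sources used here. The deposited values are normalized counts. All were whole multiples of a single number per library (100.000%, within 0.05 reads), so reads were recovered. The deposited size factors had been computed for each line separately, and on that scale KO, HA and SA are shifted against WT by -0.10, 0.15 and 0.26 (log2), so the reads were rescaled by median-of-ratios factors over all 32 libraries. Genes whose mean deposited count reached 10 entered limma (version 3.58.1, R version 4.3.3) as log2(normalized count + 1), in 1 fit of 8 groups with 15 comparisons, eBayes with a trend and Benjamini-Hochberg adjustment, limit 0.01. The script was tested on simulated data.

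The depth was 6504099 to 14750815 reads on genes. Reads are not independent molecules, since molecular identifiers were not counted. The members and lists were chosen with earlier results of these data known. Named genes are the 10 members, ACLY, list genes called against WT (at most 4 per list and comparison) and the 5 genes most alike before and after the group means are removed. Positions are from GENCODE release 44. Same-numbered libraries deviated together between WT and KO (r = 0.33 to 0.68 without LPS, 0.18 to 0.72 after LPS). These values were above 0.1 for every number, which was not so between WT and HA or SA. Same-numbered libraries also deviated together between WT and WT_LPS (0.26 to 0.68) and between KO and KO_LPS (0.12 to 0.67). Libraries of different numbers were not compared, so these values cannot show whether the numbers mark pairs. Alternatives were other scales, pseudocounts, filters, blocks and limits, and leaving out each library.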

Additional observations from a re-analysis of the deposited data

Results flagged for a closer look

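In 80 combinations of a gene and a group of 4 libraries, 9 had a library whose gap to the next exceeded Dixon's limit for 4 values, a share of the group's whole range, where chance gives about 1 in 20. Of the 9, 8 were in the library most distant from its group mean over all genes. For ATF4 these were KO replicate 3 with 8268 normalized counts (the others 3252 to 3755), WT replicate 3 after LPS with 8112 (4962 to 5325) and SA replicate 1 after LPS with 10538 (4357 to 4738). PSAT1 in WT replicate 3 had 189 (424 to 441), and SESN2 in the same library had 344 (216 to 234). TRIB3 in WT replicate 3 after LPS had 182 (277 to 288), DDIT3 in HA replicate 1 had 190.1 (294 to 313), and CHAC1 in SA replicate 1 after LPS had 12.7 (45.6 to 49.9). PHGDH in SA replicate 4 had 921 (694 to 715) and is the one outside those libraries.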

How the results depend on the processing

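The number of members called stayed at 0 in 11 of the 15 comparisons under every alternative run. The other 4 changed, almost always through PHGDH. The number of all genes called in the same fit is in parentheses. For KO against WT, 1 member was called (360), and 0 with no filter on low counts (320) and 0 with only the groups compared in the fit (179). For HA against WT, 0 were called (313), and 1 with the replicate block in the fit of 8 groups (426), 1 at a limit of 0.05 (832) and 3, DDIT3, PSAT1 and PHGDH, without the most distant library of each group (2188). For KO against WT after LPS, 0 were called (430), and 1 on the deposited scale (475), 1 at a mean count of at least 50 (404), 1 with the replicate block in the fit of 8 groups (554), 1 at a limit of 0.05 (790) and 2, ATF4 and PHGDH, without the most distant libraries (868). The block with only the groups compared gave 3 there, ATF4, PHGDH and AARS (1336), and with all WT and KO libraries 4, SHMT2 too (1509). For HA against WT after LPS, 0 were called (250), and 1 with the replicate block (313), 1 at a limit of 0.05 (506) and 1 without the most distant libraries (585). Leaving out each of the 32 libraries in turn gave 0 to 1 in each of these 4 comparisons. The cause was not tested. The fits with voom, without the most distant libraries and with WT and KO alone were chosen after seeing the data. Of 6485 alternative values of a member's difference 162 changed sign, and 7 of 2765 where the difference was at least 0.3 in size. Many of these alternatives could not change a sign. Other limits, filters and blocks leave the difference as it is, and so does leaving out a library outside the groups compared. The 2 planned tests on read counts were not run. At this depth and with 4 libraries per group, the intervals of PSAT1 and CHAC1 against WT were the widest and hold changes in either direction. Those of TRIB3, SESN2 and AARS against WT do so as well, and those of ATF4 do except in KO after LPS.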
